A study of Mus musculus with 8 samples.

Results

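The proteasome genes of mouse tumor-associated microglia and macrophages (TAMs) and of normal microglia are described here. They were taken by symbol and biotype: the protein-coding genes named Psma, Psmb, Psmc, Psmd, Psme or Psmf with a number, leaving out Psmb8, Psmb9 and Psmb10, which encode the immunoproteasome subunits. This gave 43 of the 38026 genes in the table, and 42 of them passed the filter of at least 1 TPM (transcript abundance scaled for gene length and library total) in at least 3 libraries. RNA-seq was available for 8 libraries from C57BL/6 mice, with RNA taken up in Trizol. In 5 libraries, TAM replicates 1 to 5, cells were captured with CD11b magnetic beads from the tumor, a medulloblastoma by the study's title, of mice whose ages were 68, 90, 61, 66 and 62 days. The same beads captured normal microglia from the cerebral cortex of mice 60 days old for 3 libraries. CD11b is also carried by monocytes, other macrophages and granulocytes. The groups differ in tissue of origin and in age as well as in the tumor, which cannot be told apart. The sources used here do not give the tumor model, and the labels do not say which libraries came from separate animals, so p-values measure the spread between these samples.

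The proteasome is the large protease that degrades proteins tagged with ubiquitin. Its barrel, the 20S core, is built of outer rings of alpha subunits (Psma genes) and inner rings of beta subunits (Psmb genes), of which Psmb5, Psmb6 and Psmb7 encode the ones that cut peptide bonds. The 19S cap recognises ubiquitin, unfolds the substrate with a ring of ATPases (Psmc genes) and removes the ubiquitin chain with its lid (Psmd genes). Activators encoded by Psme genes can dock on the core in place of the cap. In myeloid cells interferon-gamma induces Psmb8, Psmb9 and Psmb10, whose products replace the standard catalytic subunits, together with Psme1 and Psme2, and favours peptides for MHC class I.

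Core genes stood higher in TAMs relative to cap genes. The 14 genes of the standard core summed to 1481 to 1622 TPM in TAMs and 1291 to 1426 TPM in microglia. The 17 cap genes taken by symbol summed to 933 to 1080 TPM in TAMs and 981 to 1139 TPM in microglia. They leave out the lid gene Shfm1. Psmb6, which encodes the caspase-like catalytic subunit, rose most, by 0.76 on the log2 scale. Psma1, Psma5, Psmb5, the lid gene Psmd8 and the activator gene Psme1 also rose on TPM. On TPM the ATPase gene Psmc2 and the lid genes Psmd3 and Psmd6 fell. So did the assembly chaperone gene Psmd5, the activator gene Psme4 and the inhibitor gene Psmf1. Of all tested genes 56.4% were called lower on that scale. After the rescaling described below none of these proteasome genes was lower, and Psmc2, Psmd3 and Psmd6 were higher by 0.49, 0.45 and 0.51.

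How many proteasome genes were called depended on the scale of the libraries. With limma on log2(TPM + 1) and Benjamini-Hochberg adjustment over 15262 genes at 0.05, 6 of 42 were higher in TAMs and 6 were lower, against 8.22% of all tested genes higher and 56.4% lower. The median log2 fold change was 0.04 over the proteasome genes and -0.65 over all tested genes, and 41 of 42 proteasome genes lay above that median. Rescaling each library, by the median over genes of its ratio to the geometric mean, moved the median of all genes to 0.05. On this rescaled TPM 37 of 42 proteasome genes were higher and 0 lower, against 27.3% of all tested genes higher and 21.2% lower, and their median was 0.86. The 37 include Psmc3ip, which was taken by its symbol but encodes no subunit. The share of higher genes among all called genes moved from 12.7% on TPM to 56.3% on rescaled TPM. In all 37 of those genes all rescaled TAM values lay above all rescaled microglia values, as in 26.0% of all tested genes. The authors' deposited table, from a DESeq2 comparison of the same libraries adjusted here by Benjamini-Hochberg, had 37 of 43 higher and 0 lower, against 29.1% and 20.3% of the tested genes. Without microglia replicate 3 the TPM counts were 3 higher and 2 lower, and without microglia replicate 2 they were 5 and 2. The rescaled count was 32 without microglia replicate 3 and 33 without replicate 2. With TPM taken over protein-coding genes alone 19 were higher and 4 lower, and Psmc2 and Psmd6 were no longer called. With age as a covariate 5 were higher and 3 lower, without the calls of Psmc2, Psmd3, Psmd6 and Psmd8. All microglia were from mice of 60 days and TAM replicate 2 alone was from 90 days, so this fit rests largely on that library. Levels and log2 fold changes below are on TPM unless rescaled TPM is named, and fewer cells of a type cannot be told apart from less RNA per cell in such bulk samples.

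**Figure D1:**
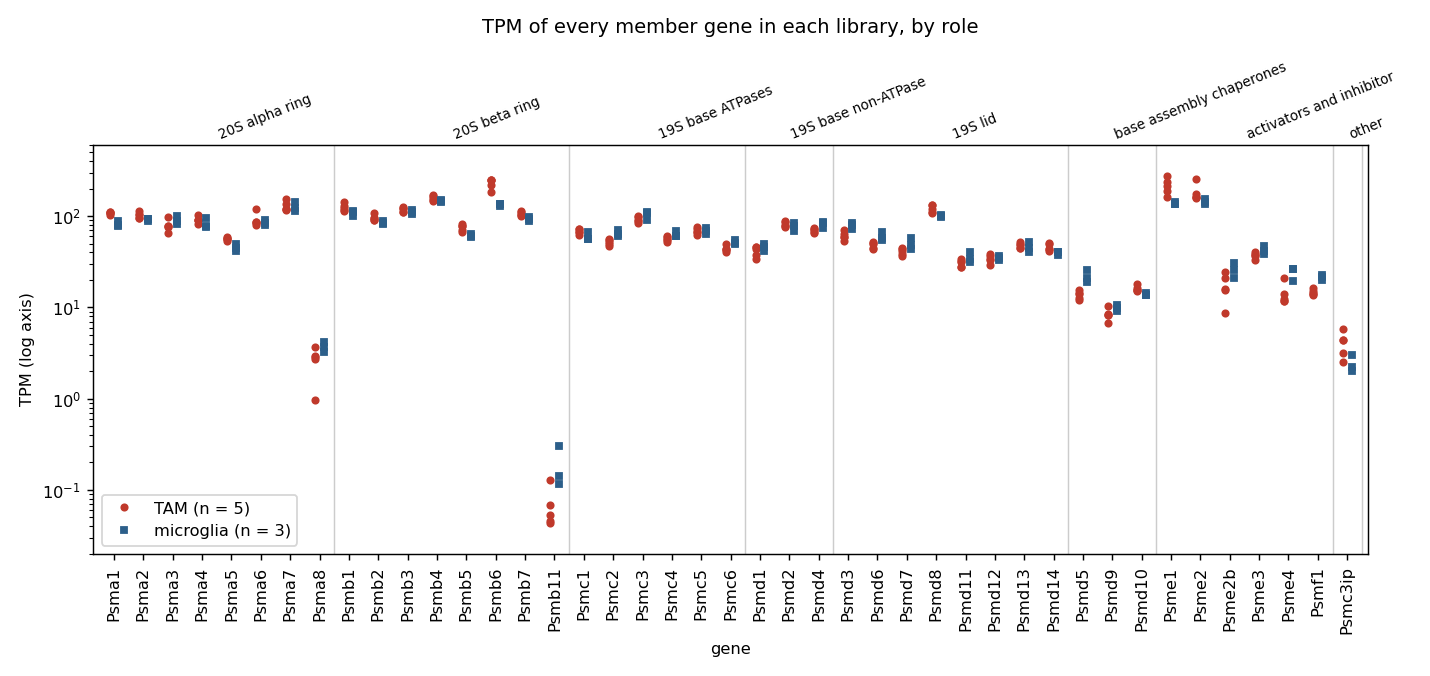
TPM on a log axis for each of the 43 genes, ordered by role, with a red circle for each of the 5 TAM libraries and a blue square for each of the 3 microglia libraries. Most core and cap genes lie within a narrow band, and all TAM points of Psmb6 and Psme1 lie above their microglia points. Psma8, Psmc3ip and Psmb11 lie below all other genes, with Psmb11 far the lowest.

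The proteasome genes varied little between libraries of 1 group. Their median coefficient of variation was 8.32% over TAMs and 7.72% over microglia, against 26.0% and 17.3% over all tested genes, whose median level was lower (11.8 TPM against 66.4 TPM). On rescaled TPM the medians were 13.1% and 14.5%, against 21.3% and 16.3% for all genes. The spread of their log2 fold changes was also narrow, with an interquartile range of 0.42 against 0.98 for all tested genes. The 43 genes together held 0.303% to 0.327% of each TAM library and 0.274% to 0.306% of each microglia library.

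Of the alpha ring genes, which form the gate and the docking face of the core, Psma1 and Psma5 rose and none fell on TPM. On that scale 8.22% of all tested genes were called higher and 56.4% lower. Psma1 was at 103, 108, 110.5, 111 and 107 TPM in TAM replicates 1 to 5 and at 79.0, 88.1 and 77.2 TPM in microglia replicates 1 to 3. The TAM values lay close together and above all microglia values (log2 fold change 0.40, SE 0.08, limma adjusted p = 0.00290). Psma5 was the lowest of the 14 core genes in every library, at 53.1 to 58.5 TPM in TAMs and 41.3 to 49.5 TPM in microglia. It rose by 0.32 (SE 0.09, limma adjusted p = 0.0146), and without microglia replicate 3 this was not called (adjusted p = 0.0835). Psma2 was at 96.2 to 114.5 TPM in TAMs and 87.5 to 93.8 TPM in microglia, without overlap but without a call (log2 fold change 0.17, limma adjusted p = 0.124). Psma4, Psma6 and Psma7 overlapped between the groups, with log2 fold changes of 0.13, 0.10 and 0.03 and no call. Psma6 was at 120.7 TPM in TAM replicate 2 and at 80.9 to 86.8 TPM in the other TAM libraries.

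Psma3 was the 1 of the 14 core genes with a negative log2 fold change (-0.19, limma adjusted p = 0.229). It was at 65.7, 97.9, 76.2, 77.6 and 78.0 TPM in TAMs and at 81.0, 99.96 and 89.5 TPM in microglia. Its reads can be split with the processed pseudogene Gm13835, whose transcript matched Psma3 at 100% identity over 685 bases and which was listed at 32.0 to 45.8 TPM in TAMs and 26.1 to 37.7 TPM in microglia. With the copies added, the log2 fold change of Psma3 was -0.07 (limma adjusted p = 0.599). On rescaled TPM all 7 standard alpha genes were higher, against 27.3% of all tested genes, with Psma3 at 0.62 and Psma1 at 1.22. The call of Psma3 there was lost without microglia replicate 2 or 3 (limma adjusted p = 0.0606 and 0.0654).

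All 7 standard beta genes had positive log2 fold changes, and in 5 of them every TAM library lay above every microglia library, which held for 7.97% of all tested genes. Psmb6 was at 217, 186, 246, 249 and 246 TPM in TAMs and at 137, 136 and 129 TPM in microglia. The lowest TAM library, replicate 2, was above the highest microglia library, and the change of 0.76 (SE 0.11, limma adjusted p = 0.000854) was called in each fit that left out 1 library. Psmb6 was the highest of the 14 core genes in all 5 TAM libraries, whereas Psmb4, a beta subunit without catalytic activity, was the highest in all 3 microglia libraries. The gap from the highest to the lowest core gene was 3.18-fold to 4.68-fold in TAMs and 3.04-fold to 3.44-fold in microglia.

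Psmb5, which encodes the chymotrypsin-like subunit targeted by proteasome inhibitor drugs, was at 77.3, 71.3, 77.9, 82.6 and 67.8 TPM in TAMs and at 59.2, 64.2 and 60.3 TPM in microglia. The groups did not overlap, and the rise was 0.29 (SE 0.09, limma adjusted p = 0.0224). The call of Psmb5 was lost without TAM replicate 3 or 4 (adjusted p = 0.0541 and 0.0515) or microglia replicate 1 or 3 (0.0698 and 0.0837). Psmb7, which encodes the trypsin-like subunit, was at 101, 106.5, 112, 114 and 103 TPM in TAMs and at 89.0, 96.98 and 94.0 TPM in microglia. Its groups did not overlap either, but its log2 fold change of 0.20 missed the threshold (SE 0.08, limma adjusted p = 0.0557), and passed it without TAM replicate 5 (adjusted p = 0.0459). Psmb7 overlaps Nek6 in the table's coordinates, which reached 127 TPM, and the sources used here do not give the strand setting. The structural subunits Psmb1, Psmb2, Psmb3 and Psmb4 had log2 fold changes of 0.20, 0.17, 0.10 and 0.10 without a call on TPM. On rescaled TPM all 7 were higher, from 0.92 for Psmb3 and Psmb4 to 1.58 for Psmb6, against 27.3% of all tested genes.

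Of the 6 ATPase genes of the cap's base, Psmc2 fell and none rose on TPM, against 56.4% of all tested genes lower. Psmc2 was at 51.7, 47.7, 48.9, 54.6 and 56.01 TPM in TAMs and at 60.4, 70.5 and 64.2 TPM in microglia, with every TAM library below every microglia library, as in 49.7% of all tested genes. The fall was -0.32 (SE 0.10, limma adjusted p = 0.0170) and was not called without microglia replicate 2 or 3 (adjusted p = 0.0816 and 0.0578). Psmc1 had the highest log2 fold change of the ATPases at 0.20 (limma adjusted p = 0.101), with 62.7, 67.4, 72.3, 66.9 and 73.0 TPM in TAMs against 56.2, 66.5 and 56.1 TPM in microglia, so that the groups overlapped. Psmc5 was at 68.8 ± 5.77 TPM in TAMs (SD, n = 5) and at 68.8 ± 4.89 TPM in microglia (SD, n = 3). Psmc3, Psmc4 and Psmc6 had log2 fold changes of -0.15, -0.17 and -0.23, none called, although Psmc6 was called lower without TAM replicate 5 (limma adjusted p = 0.0206). On rescaled TPM all 6 were higher, by 0.49 for Psmc2 to 1.01 for Psmc1, against 27.3% of all tested genes. The call of Psmc2 was lost there without microglia replicate 2 or 3 (limma adjusted p = 0.0722 and 0.0749).

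The base also holds Psmd1 and Psmd2, large scaffolds, and Psmd4, a ubiquitin receptor, and none of these was called on TPM. By comparison, 8.22% of all tested genes were called higher on TPM and 56.4% lower. Of the 3 base genes Psmd2 had the highest log2 fold change at 0.08, with 76.0, 77.3, 86.5, 79.9 and 87.4 TPM in TAMs and 68.8, 83.6 and 78.4 TPM in microglia. Psmd4 had the lowest at -0.22 (limma adjusted p = 0.0643), with 65.5, 69.9, 72.3, 66.6 and 74.9 TPM in TAMs and 73.6, 84.8 and 86.0 TPM in microglia. In both genes the groups overlapped, Psmd4 by TAM replicate 5 alone. Psmd4 was called lower without TAM replicate 5 or microglia replicate 1 (adjusted p = 0.0422 and 0.0385). On rescaled TPM all 3 were higher, at 0.67 for Psmd1, 0.90 for Psmd2 and 0.60 for Psmd4, against 27.3% of all tested genes.

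The lid genes split on TPM, where 8.22% of all tested genes were called higher and 56.4% lower. Psmd8, needed for the lid to join the base, was at 107.8, 131, 120.0, 112 and 134 TPM in TAMs and at 102, 97.9 and 99.7 TPM in microglia, without overlap. It rose by 0.27 (SE 0.10, limma adjusted p = 0.0379), but 6 of the 8 fits that left out 1 library did not call Psmd8: without TAM replicate 2, 3 or 5 (adjusted p = 0.0595, 0.0704 and 0.0534) and without microglia replicate 1, 2 or 3 (0.0715, 0.114 and 0.108). Psmd14, the deubiquitinase of the lid, was at 41.9 to 50.4 TPM in TAMs and 37.2 to 40.7 TPM in microglia, without overlap and without a call (log2 fold change 0.21, limma adjusted p = 0.10).

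Psmd3 had the lowest log2 fold change of the lid. It was at 53.2, 58.4, 59.8, 63.0 and 70.5 TPM in TAMs and at 71.8, 84.4 and 80.1 TPM in microglia, with TAM replicate 5 nearest to the microglia. The fall was -0.37 (SE 0.11, limma adjusted p = 0.0182), not called without microglia replicate 2 or 3 (adjusted p = 0.0808 and 0.0694). Psmd6 fell by 0.30 on the log2 scale (SE 0.11, limma adjusted p = 0.0364). Its levels of 43.5 to 52.3 TPM in TAMs lay below the 54.1 to 66.8 TPM of microglia. The call of Psmd6 was lost without TAM replicate 1, 2 or 3 (adjusted p = 0.0701, 0.0603 and 0.0617) or microglia replicate 2 or 3 (0.157 and 0.0862). Psmd7, the lid subunit that pairs with Psmd14, was not called at -0.28 (limma adjusted p = 0.0666), except without microglia replicate 1 (adjusted p = 0.0415). Psmd11, Psmd12 and Psmd13 had log2 fold changes of -0.19, -0.05 and 0.05 without a call. On rescaled TPM all 8 lid genes were higher, by 0.45 for Psmd3 to 1.09 for Psmd8, against 27.3% of all tested genes. There Psmd3 and Psmd6 were not called without microglia replicate 2 (adjusted p = 0.0518 and 0.0569) or replicate 3 (0.0508 and 0.0670), nor was Psmd7 without replicate 3 (0.0557).

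**Figure D2:**
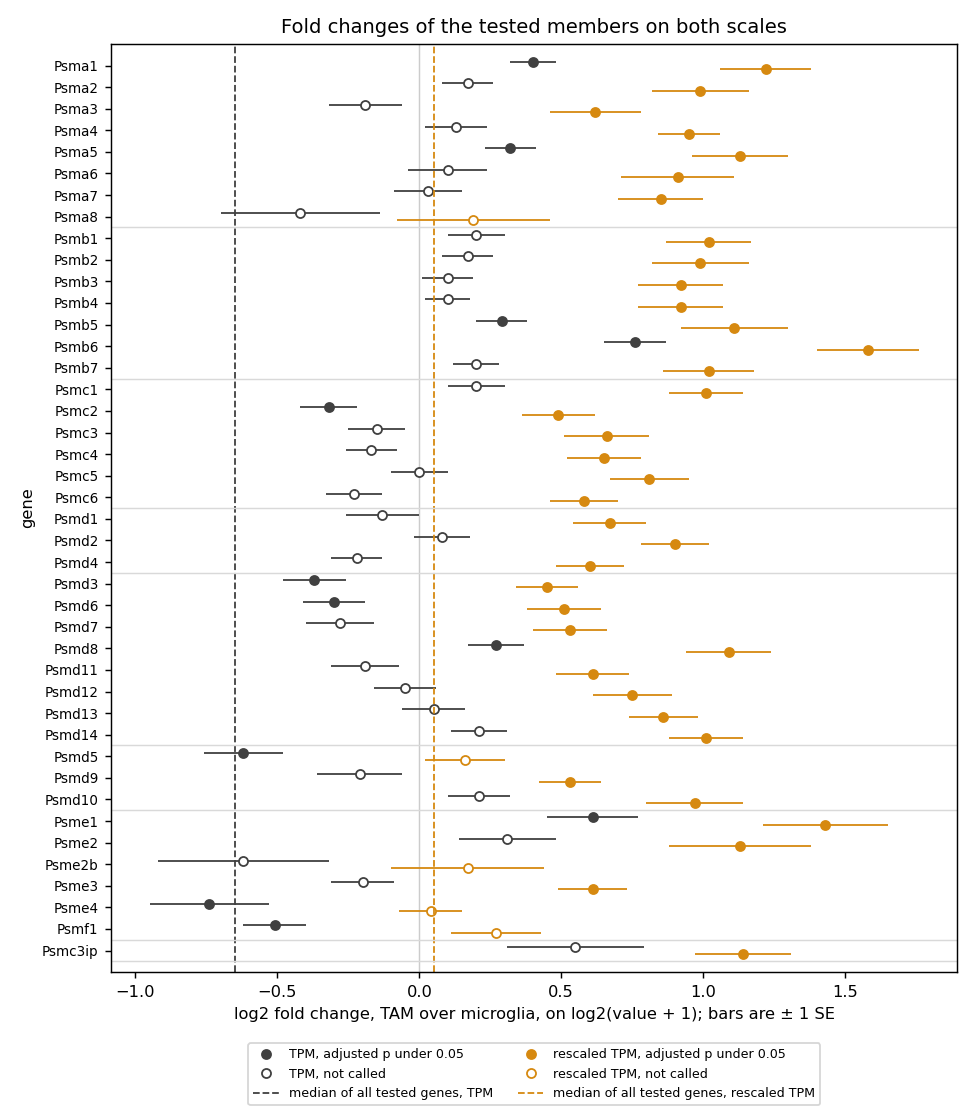
Log2 fold changes of the 42 tested genes, TAM over microglia on log2(value + 1), with bars of ± 1 SE, on TPM (grey) and on rescaled TPM (orange). Filled points passed an adjusted p of 0.05 and dashed lines mark the median of all tested genes, at -0.65 on TPM and 0.05 on rescaled TPM. Psmb6 has the highest value and Psme4 the lowest on both scales.

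Ratios within a library do not change when that library is rescaled, so core and cap were set against each other in this way. The mix of cells in a library does not cancel in such a ratio. The core sum over the cap sum was 1.59, 1.65, 1.55, 1.54 and 1.5 in TAM replicates 1 to 5 and 1.34, 1.25 and 1.22 in microglia replicates 1 to 3. The means were 1.57 ± 0.0571 (SD, n = 5) and 1.27 ± 0.0592 (SD, n = 3), and the lowest TAM library was above the highest microglia library. No test is given for these sums, since the genes were grouped with results of these data known. Endothelial markers summed to 19.4, 35.9, 13.8, 40.2 and 87.2 TPM in TAM replicates 1 to 5. In microglia replicates 1 to 3 they summed to 584, 1886 and 1411 TPM. The part of other cells in the ratio of core to cap was not tested. Of the 14 core genes 13 had a positive log2 fold change on TPM (median 0.17), and of the 17 cap genes 5 did (median -0.15). Core genes did not overlap between the groups in 8 of 14, all higher in TAMs, and cap genes in 6 of 17, with 2 higher and 4 lower. Of all tested genes 7.97% were higher and 49.7% lower without overlap. Within the core, the beta sum over the alpha sum was 1.16 to 1.48 in TAMs and 1.16 to 1.29 in microglia, which overlapped. TAM replicate 2 had the 1.16, and the other TAM libraries had 1.41 to 1.48. The lid sum over the ATPase sum was 1.08 to 1.18 in TAMs and 1.08 to 1.09 in microglia.

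**Figure D3:**
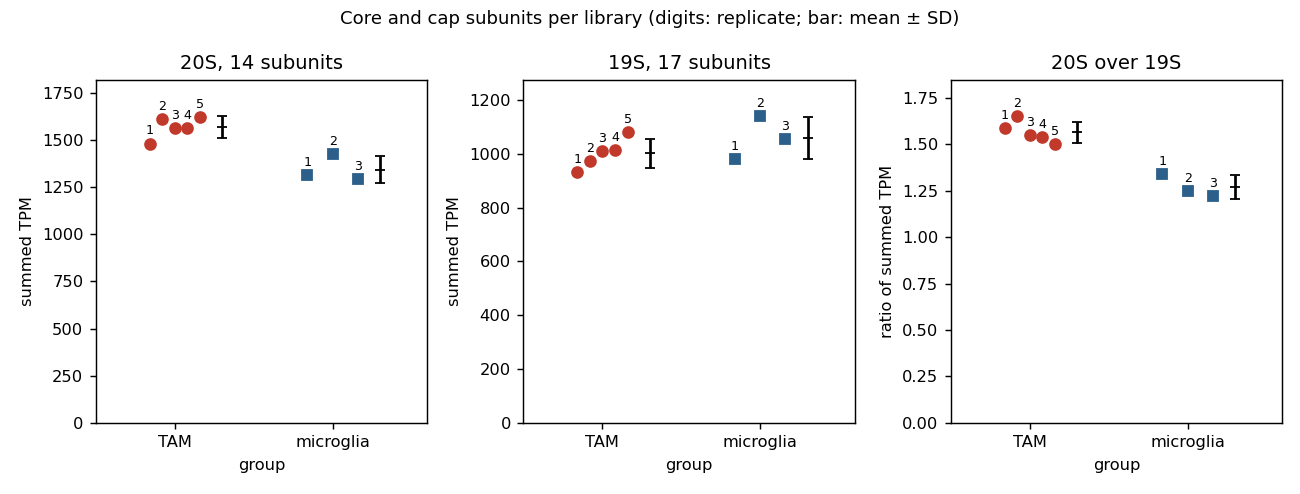
Summed TPM of the 14 core genes (left), of the 17 cap genes (middle) and their ratio (right) in each library, with digits for the replicate and bars for the mean ± SD. The core sums and the ratio do not overlap between the groups, at 1.5 to 1.65 against 1.22 to 1.34 for the ratio, while the cap sums do.

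Promoter sequence is shown for 7 of the genes called on TPM, chosen after their values were seen, with and without the short motifs searched. RefSeq promoters (GRCm38.p6, the assembly of mm10) were matched for 36 of the 43 genes. The 150 bases before the start of transcription are printed 5′ to 3′ on the gene's strand for Psmb6, Psma1 and Psmb5, which rose on TPM, and for Psmd6, Psme4, Psmd5 and Psmf1, which fell. Capitals mark TGACNNNGC (the antioxidant response element core, where Nfe2l1 and Nfe2l2 are known to bind), CCAAT (the box bound by NF-Y) and CCGGAAG (an ETS-like motif), on either strand.
Psmb6, chr11:70525207-70525356, plus strand: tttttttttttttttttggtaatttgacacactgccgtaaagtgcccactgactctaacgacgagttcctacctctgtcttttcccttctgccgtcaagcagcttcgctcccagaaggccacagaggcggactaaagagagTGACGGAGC
Psma1, chr7:114276117-114276266, minus strand: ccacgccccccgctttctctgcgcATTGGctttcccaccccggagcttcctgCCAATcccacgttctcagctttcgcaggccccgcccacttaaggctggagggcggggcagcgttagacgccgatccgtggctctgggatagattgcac
Psmb5, chr14:54617996-54618145, minus strand: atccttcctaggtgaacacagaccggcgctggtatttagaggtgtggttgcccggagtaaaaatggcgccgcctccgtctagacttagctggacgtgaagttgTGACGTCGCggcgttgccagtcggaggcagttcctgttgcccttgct
Psmd6, chr14:14120946-14121095, minus strand: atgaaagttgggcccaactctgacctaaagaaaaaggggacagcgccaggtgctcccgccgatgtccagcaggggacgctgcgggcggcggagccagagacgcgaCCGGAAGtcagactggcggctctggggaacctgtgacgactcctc
Psme4, chr11:30771625-30771774, plus strand: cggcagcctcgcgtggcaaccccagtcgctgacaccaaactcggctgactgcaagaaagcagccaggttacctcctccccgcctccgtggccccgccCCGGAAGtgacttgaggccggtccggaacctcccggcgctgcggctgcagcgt
Psmd5, chr2:34870963-34871112, minus strand: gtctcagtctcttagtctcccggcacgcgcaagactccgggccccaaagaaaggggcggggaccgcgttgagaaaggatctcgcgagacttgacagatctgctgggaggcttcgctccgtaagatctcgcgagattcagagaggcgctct
Psmf1, chr2:151741311-151741460, minus strand: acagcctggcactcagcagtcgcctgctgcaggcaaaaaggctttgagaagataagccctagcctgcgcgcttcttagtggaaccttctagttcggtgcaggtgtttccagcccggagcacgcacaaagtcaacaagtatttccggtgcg

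Over the 250 bases before the start, searched on both strands, CCGGAAG was found in 12 of 36 proteasome genes (33.3%) and in 7.83% of the 27025 genes with a listed promoter. By role it was found in 8 of 14 cap genes, namely Psmc1, Psmc2, Psmc6, Psmd2, Psmd4, Psmd6, Psmd11 and Psmd12, and in 1 of 11 core genes, Psma6. Among the genes that fell on TPM it was in Psmc2, Psmd6 and Psme4 and not in Psmd5 or Psmf1, whose printed stretches hold none of the motifs in capitals. The RefSeq starts of Psmd5 and Psmf1 lie inside the listed coordinates of these genes, so a start farther upstream was not searched. Psmd3, which also fell, had no listed promoter. TGACNNNGC was found in 5 of 36 (13.9%, against 11.5% of all genes): the catalytic genes Psmb5 and Psmb6, and Psmc6, Psmd9 and Psmd12. The longer form TGACTCAGC was found in 0 of 36 and in 0.426% of all genes. CCAAT was found in 38.9% against 37.5% of all genes, and in 6 of 11 core genes and 4 of 14 cap genes. The GC box GGGCGG was found in 55.6% against 35.4%, and the TATA box TATAAA in 8.33% against 14.3%. The heat shock element was found in 0 of 36 and in 0.514% of all genes. These matches are letters in a fixed window and no test was made of them.

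Of the 3 chaperones that assemble the base, Psmd5 alone was called on TPM, as lower. Lower calls covered 56.4% of all tested genes, and 49.7% were lower without overlap. Psmd5, a chaperone of the ATPase ring, was at 12.7, 12.2, 13.97, 14.3 and 15.4 TPM in TAMs and at 20.9, 25.6 and 18.8 TPM in microglia, without overlap. It fell by 0.62 on the log2 scale (SE 0.14, limma adjusted p = 0.00463), called in each fit that left out 1 library, and on rescaled TPM it was not called at 0.16. Psmd10, the chaperone also known as gankyrin, was at 18.1, 15.5, 16.3, 14.96 and 15.6 TPM in TAMs and at 13.5, 14.3 and 13.6 TPM in microglia. Its groups did not overlap, without a call on TPM (log2 fold change 0.21, limma adjusted p = 0.127) and with one on rescaled TPM (0.97). Psmd9 was not called at -0.21 on TPM and was higher by 0.53 on rescaled TPM.

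Among the activators, Psme1 rose on both scales, as did 8.22% of all tested genes on TPM and 27.3% on rescaled TPM. Psme1 and Psme2 encode the alpha and beta subunits of PA28, and both genes lie on chromosome 14. Psme1 was at 272, 190.2, 163, 216 and 236 TPM in TAMs and at 143, 137 and 137 TPM in microglia, without overlap (log2 fold change 0.61, SE 0.16, limma adjusted p = 0.00970, and 1.43 on rescaled TPM). Psme2 was at 257 TPM in TAM replicate 1 and at 157, 163, 173 and 163 TPM in TAM replicates 2 to 5, against 143, 153 and 137 TPM in microglia. All TAM libraries were above all microglia libraries, but the log2 fold change of Psme2 of 0.31 was not called (SE 0.17, limma adjusted p = 0.128), and it was 0.18 without TAM replicate 1 (adjusted p = 0.104). It was called at 0.48 with TPM over protein-coding genes alone (adjusted p = 0.0469) and at 1.13 on rescaled TPM. The sum of Psme1 and Psme2 over the core sum was 0.357, 0.215, 0.208, 0.248 and 0.246 in TAMs and 0.218, 0.203 and 0.212 in microglia, so TAM replicate 1 stood above all other libraries and TAM replicates 2 and 3 lay within the range of microglia.

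The other activators and the inhibitor were lower or not called on TPM. On that scale 56.4% of all tested genes were called lower, and 49.7% were lower without overlap. Psme3, which encodes the nuclear PA28 gamma, was at 32.9, 37.8, 36.2, 38.2 and 40.0 TPM in TAMs and at 38.9, 47.4 and 41.7 TPM in microglia, overlapping by TAM replicate 5 (log2 fold change -0.20, limma adjusted p = 0.127). Psme4, which encodes the large activator PA200, was at 12.4, 14.04, 11.7, 11.8 and 21.0 TPM in TAMs and at 19.4, 26.1 and 26.6 TPM in microglia. TAM replicate 5 lay within the microglia range and the other 4 below it. The fall of Psme4 was -0.74 (SE 0.21, limma adjusted p = 0.0141) and was not called without microglia replicate 2 or 3 (adjusted p = 0.0588 and 0.0619). On rescaled TPM it stood at 0.04 without a call. Psme4 amounted to 2.35% to 5.26% of the sum of Psme1 and Psme2 in TAMs and to 6.77% to 9.73% in microglia. Psmf1, which encodes the inhibitor PI31, was at 15.02, 14.4, 13.6, 13.9 and 16.5 TPM in TAMs and at 22.5, 21.4 and 19.95 TPM in microglia, without overlap. It fell by 0.51 (SE 0.11, limma adjusted p = 0.00448), called in each fit that left out 1 library, and was not called on rescaled TPM (0.27, adjusted p = 0.177), except without microglia replicate 1 (0.45, adjusted p = 0.0223).

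A further 4 genes of the set are not standard subunits of the proteasome of most tissues. Psmb11, the thymus-specific catalytic subunit, was at 0.0433 to 0.129 TPM in TAMs and 0.116 to 0.301 TPM in microglia, below the filter, and was the 1 gene not tested. Psma8, the testis-specific counterpart of Psma7, was at 2.96, 0.978, 2.73, 2.86 and 3.69 TPM in TAMs and at 3.22, 3.66 and 4.23 TPM in microglia, without a call (log2 fold change -0.42, limma adjusted p = 0.215). On rescaled TPM Psma8 was called higher only without TAM replicate 2, its lowest library (0.41, limma adjusted p = 0.0308), and with age as a covariate (0.54, limma adjusted p = 0.0410). TAM replicate 2 came from the oldest mouse, at 90 days, so these settings are not independent. Psme2b, a relative of Psme2 on chromosome 11, was at 8.76 to 24.5 TPM in TAMs and 20.8 to 31.0 TPM in microglia, overlapping, without a call (log2 fold change -0.62, limma adjusted p = 0.0973, and 0.0431 without TAM replicate 5). Reads may be shared between Psme2 and Psme2b, and with their values summed the log2 fold change of Psme2 was 0.20 (adjusted p = 0.293). Psmc3ip has a subunit-like symbol but encodes a meiotic recombination factor. It was at 2.51, 4.38, 4.44, 3.19 and 5.83 TPM in TAMs and at 2.00, 2.98 and 2.22 TPM in microglia (log2 fold change 0.55, limma adjusted p = 0.0754, and 0.0348 without TAM replicate 1), and it overlaps Mlx. On rescaled TPM Psmc3ip was called higher, by 1.14 (limma adjusted p = 0.0011).

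The 3 inducible catalytic genes were set against the standard gene whose product each replaces, again as a ratio within each library. Psmb8 over Psmb5 was 3.15, 2.44, 2.14, 2.24 and 2.45 in TAMs and 1.58, 1.23 and 1.42 in microglia. All 5 TAM values exceeded all 3 microglia values, with a difference of 0.81 in mean log2 ratio (exact two-sided permutation test, p = 0.0357, the smallest p that 5 against 3 samples allow, and 0.107 adjusted over the 3 ratios). Psmb9 over Psmb6 was 0.509, 0.384, 0.211, 0.258 and 0.287 in TAMs and 0.309, 0.327 and 0.350 in microglia, which overlapped (difference -0.06, exact permutation p = 0.821, adjusted 0.821). Psmb10 over Psmb7 was 0.936, 0.723, 0.561, 0.685 and 0.683 in TAMs and 0.822, 0.744 and 0.732 in microglia (difference -0.11, exact permutation p = 0.536, adjusted 0.804). TAM replicate 1 had the highest TAM value of all 3 ratios and TAM replicate 3 the lowest. Without TAM replicate 1 the difference of Psmb9 over Psmb6 was -0.24 and that of Psmb10 over Psmb7 was -0.21, and without TAM replicate 3 they were 0.08 and -0.03. By level, Psmb8 was at 187 ± 32.4 TPM in TAMs (SD, n = 5) and 86.2 ± 7.36 TPM in microglia (SD, n = 3), a rise of 1.10 (limma adjusted p = 0.000415). Psmb9 rose by 0.69 (limma adjusted p = 0.0191, but 0.0527 to 0.0578 without any 1 microglia library), and Psmb10 was not called at 0.09 (limma adjusted p = 0.564). On rescaled TPM all 3 were higher, against 27.3% of all tested genes. The changes there were 1.91 for Psmb8, 1.50 for Psmb9 and 0.90 for Psmb10 (limma adjusted p = 0.0118 for Psmb10).

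**Figure D4:**
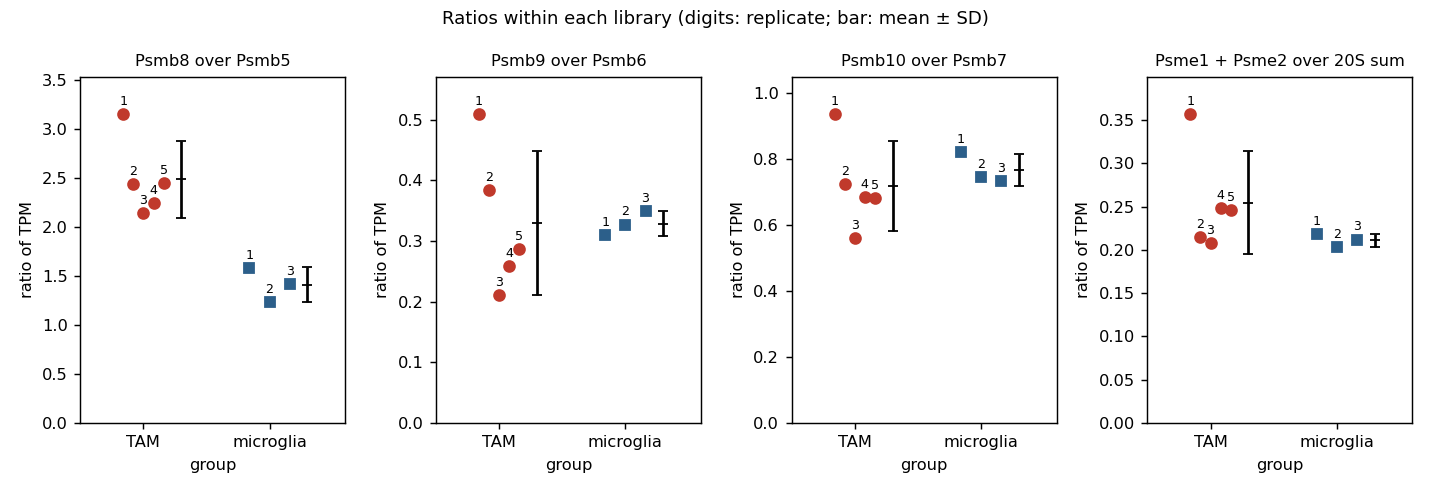
Ratio of TPM within each library for Psmb8 over Psmb5, Psmb9 over Psmb6, Psmb10 over Psmb7, and the sum of Psme1 and Psme2 over the core sum, with digits for the replicate and bars for the mean ± SD (n = 5 TAM, n = 3 microglia). Only the ratio of Psmb8 to Psmb5 separates the groups among these 4, and TAM replicate 1 is the highest TAM library in each panel.

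Genes that build, supply or regulate the proteasome were followed from 5 further lists of 35 genes in the table. Of the 5 chaperones of core assembly, Psmg4 and Pomp rose and Psmg2 and Psmg1 fell on TPM (4 higher and 0 lower rescaled). Pomp, the maturation protein that closes the core, was at 203 to 219 TPM in TAMs and 171 to 185 TPM in microglia, a rise of 0.23 (limma adjusted p = 0.0254) that was not called without TAM replicate 3 or 4 or microglia replicate 1 or 3 (0.0561 to 0.115). Psmg4 rose by 0.68 and Psmg2 fell by 0.84, both called in each fit that left out 1 library, and Psmg2 stood at -0.05 rescaled. Psmg1 fell by 0.38 (limma adjusted p = 0.0381) and was not called without TAM replicate 1, 2, 3 or 4 or microglia replicate 2 or 3 (0.0646 to 0.131). Of 7 other genes of proteasome-bound proteins, Shfm1, which encodes a small lid subunit, rose by 0.48 (adjusted p = 0.0139, and 0.0540 without microglia replicate 3), while Ube3c, a ubiquitin ligase, and AI314180, which encodes the adaptor ECM29, fell by 0.75 and 0.83. On rescaled TPM 5 of these 7 were higher and 0 lower. Shfm1 was not taken by the symbol rule, so the lid and cap counts and sums above leave it out. The shares over all tested genes were 8.22% higher and 56.4% lower on TPM, and 27.3% higher and 21.2% lower rescaled.

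The transcription factor gene Nfe2l1, whose product is known to induce proteasome genes when proteasome activity is low, was lower in TAMs on TPM. It was at 30.4, 41.6, 30.8, 35.8 and 42.9 TPM in TAMs and at 50.1, 86.4 and 62.5 TPM in microglia, without overlap (log2 fold change -0.83, SE 0.19, limma adjusted p = 0.00598), and on rescaled TPM it stood at -0.02 without a call. Ngly1 and Syvn1, which act on the Nfe2l1 protein at the endoplasmic reticulum, both fell by 0.61. Vcp, the ATPase that extracts ubiquitinated proteins and hands them to the proteasome, rose by 0.66 (SE 0.09, limma adjusted p = 0.000604), with 130.1 ± 8.75 TPM in TAMs (SD, n = 5) and 82.2 ± 5.47 TPM in microglia (SD, n = 3). Of the 7 genes of this list 1 rose and 3 fell on TPM (3 and 0 rescaled). Of all tested genes 8.22% rose and 56.4% fell on TPM (27.3% and 21.2% rescaled), and 49.7% were lower without overlap on TPM.

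Ubb, a polyubiquitin gene, fell by 0.40 on TPM (limma adjusted p = 0.0118, and 0.166 with TPM over protein-coding genes alone) and was not called on rescaled TPM (0.42, adjusted p = 0.129). Uba1, the main ubiquitin-activating enzyme, fell by 0.37 on TPM (limma adjusted p = 0.0114, and 0.0594 without microglia replicate 2) and was higher by 0.45 rescaled. Of the 10 genes of shuttle receptors and Vcp cofactors 6 fell and 0 rose on TPM (0 and 4 rescaled), beside 56.4% of all tested genes lower on TPM, with Ubqln2 at -0.93, Ufd1l at -0.87, Faf2 at -0.50 and Ubqln1 at -0.49.

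The libraries differed in what else they held. Markers of microglia and macrophages (10 genes) summed to 14858 to 27760.0 TPM in TAMs and 23097 to 28465 TPM in microglia, with the lowest sum in TAM replicate 2, and none of the 10 was at 0 in all TAM libraries. They were split, with 3 called higher and 5 lower on TPM (4 and 4 rescaled) and a median log2 fold change of -1.24 on TPM. Over all tested genes 8.22% were higher and 56.4% lower on TPM, and 27.3% and 21.2% rescaled. Endothelial markers (9 genes) summed to 13.8 to 87.2 TPM in TAMs and 584 to 1886 TPM in microglia, and all 9 were lower in TAMs. Mural markers (6 genes) summed to 3.15 to 18.7 TPM in TAMs and 286 to 788 TPM in microglia, astrocyte markers (6) to 5.35 to 66.2 and 85.0 to 481 TPM, and oligodendrocyte markers (6) to 45.4 to 56.8 and 145 to 755 TPM. On TPM 6 mural, 5 astrocyte and 6 oligodendrocyte markers were called lower and 0 higher. Cell division genes (10) summed to 137 to 235 TPM in TAMs and 28.6 to 41.8 TPM in microglia, and all 10 were higher. Granule lineage markers (8) summed to 70.7 TPM in TAM replicate 5 and 4.73 to 14.7 TPM in the other TAM libraries. In microglia they summed to 4.83 to 28.2 TPM. Of the 7 granule lineage markers tested, 3 were called higher and 0 lower on both scales. Neutrophil markers (8) summed to 228 to 523 TPM in TAMs and 430 to 478 TPM in microglia. Of the 6 tested, 2 were called higher and 2 lower on TPM (2 and 0 rescaled). B and plasma cell markers (6) summed to 197 to 781 TPM in TAMs and 377 to 406 TPM in microglia. Of the 3 tested, 1 was called higher and 1 lower on TPM (2 and 0 rescaled). The rescaling factor of TAM replicate 5 was 1.05 against 0.717 to 0.776 in the other TAMs and 1.16 to 1.67 in microglia, and 24 of 42 proteasome genes had their highest TAM value in it. In microglia, 32 of 42 had their highest value in replicate 2, which also had the highest factor. Without TAM replicate 5, 6 proteasome genes were higher and 9 lower on TPM, and 37 were higher on rescaled TPM. The part of these markers and libraries in the proteasome values was not tested.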

How the data were processed

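RNA-seq of 5 TAM and 3 microglia libraries was used as TPM values per gene, which the authors deposited in 1 table. Reads were placed on mm10, with FastQC and DESeq2 among the tools and no versions given, per the submitters' processing notes. The sources used here do not give the aligner, the gene annotation or the strand setting. Besides TPM, the authors deposited a mean signal over all libraries, a log2 fold change and a p-value from their comparison, and this p-value was adjusted here by Benjamini-Hochberg. Since TPM keeps no depth, library depth is unknown. TPM summed to 990422 to 997832 over the genes of a library, and 12683 to 14242 genes in TAMs and 14375 to 16619 in microglia were at 1 TPM or more. The table has 3 further columns that could not be tied to a sample, which were not used.

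Genes at 1 TPM or more in at least 3 libraries were tested as log2(TPM + 1) with limma 3.58.1 in R 4.3.3 and Benjamini-Hochberg adjustment over all 15262 tested genes, at 0.05. Fold changes are on that scale, which understates low genes. The same fit was made after rescaling each library by its median ratio. The fits were tested on simulated data. Ratios within a library were compared by exact permutation tests (scipy 1.17.1). Near-identical pseudogene copies were found with blastn 2.17.0 against GENCODE transcripts, at 95% identity over at least 80% of the length. Full values go to the standard catalytic genes, to most genes of highest or lowest fold change in a role group, to Psme1 to Psme4, to Psmf1 and to Nfe2l1. Of each related list up to 4 called genes of lowest p were taken, mostly with a fold change, a range or a mean alone. Some genes of the related lists are not reported here. Other genes named in the text were chosen after their values were seen, and the proteasome genes, the lists and the rescaling were chosen with earlier results of these data known. Alternatives were TPM over protein-coding genes, TPM without 3 abundant small or noncoding features, other filters and pseudocounts, age, a replicate block, adding copies, and leaving out each library. Adding Psme2b to Psme2 was chosen after seeing the data.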

Additional observations from a re-analysis of the deposited data

Results flagged for a closer look

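In 46 genes and ratios, the TAM library farthest from the others was set against the range of the group, and 4 genes stood apart by Dixon's criterion. Chance alone gives about 1 in 20. Psma6 was at 120.7 TPM in TAM replicate 2, against 80.9 to 86.8 TPM in the other TAM libraries. Psmb2 was at 107.3 TPM in the same library, against 90.6 to 95.3 TPM. Psme2 was at 257.4 TPM in TAM replicate 1, against 157.0 to 172.6 TPM. Psme4 was at 21.0 TPM in TAM replicate 5, against 11.7 to 14.04 TPM.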

How the results depend on the processing

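Against 6 proteasome genes higher and 6 lower on TPM, leaving out 1 library gave 3 to 7 higher and 2 to 9 lower. Higher counts were 19 with TPM over protein-coding genes, 20 without 3 abundant features and 37 on rescaled TPM. Lower counts were 3 without those features, 3 with age as a covariate and 0 on rescaled TPM. Psmb6, Psma1 and Psme1 were called higher under every alternative run. On rescaled TPM the log2 fold change turned positive for 20 proteasome genes: Psma3 0.62, Psma8 0.19, Psmc2 0.49, Psmc3 0.66, Psmc4 0.65, Psmc5 0.81, Psmc6 0.58, Psmd1 0.67, Psmd11 0.61, Psmd12 0.75, Psmd3 0.45, Psmd4 0.60, Psmd5 0.16, Psmd6 0.51, Psmd7 0.53, Psmd9 0.53, Psme2b 0.17, Psme3 0.61, Psme4 0.04 and Psmf1 0.27. It also turned positive for Faf2 0.29, Ngly1 0.15, Psmg1 0.39, Syvn1 0.19, Uba1 0.45, Ubb 0.42, Ube3c 0.01 and Ubqln1 0.32. The shift follows from the scaling itself, which moves the median of all genes from -0.65 to 0.05. Uncalled values near 0 also changed sign. With TPM over protein-coding genes these were Psmc3 0.01, Psmc5 0.16, Psmd1 0.03 and Psmd12 0.11. Without the 3 features they were Psmc3 0.04, Psmc4 0.02, Psmc5 0.19, Psmd1 0.05 and Psmd12 0.14. With age they were Psma6 -0.08, Psma7 -0.07, Psmc5 0.06 and Psmd12 0.04. Without TAM replicate 2, Psma7 was at -0.03, Psmc5 at 0.04, and Psma6 and Psmd12 rounded to 0. Without microglia replicate 1, Psma7 was at -0.04 and Psmd13 at -0.02. Psmc5 was at 0.01 without TAM replicate 1 or 3 or microglia replicate 3, and with 1 library left out it ranged from -0.05 to 0.05 (microglia replicates 1 and 2), while Psmd12 ranged from -0.09 to 0. The log2 ratio of Psmb9 to Psmb6 differed by -0.24 to 0.08 with 1 library left out, at 0.08 without TAM replicate 3 and 0.01 without TAM replicate 4, and by 0.07 with the replicate block, none past the threshold. The rescaled count of 37 was 32 to 38 over all alternatives, with 0 lower in each. Same-numbered TAM and microglia libraries correlated at 0.15, 0.0139 and -0.0507 over genes on TPM, as deviations from their group means. Differently numbered libraries were not compared, so this does not settle whether the numbers pair the samples. The main fits used no pairing. With the replicate block 4 genes were higher and 6 lower on TPM, and 35 higher on rescaled TPM. TPM carries no counts, so what depth limits could not be measured.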
